A study of Homo sapiens with 8 samples.

Results

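HOX genes encode the homeodomain transcription factors that give cells along the head-to-tail axis and along the limb their positional identity. In humans they lie in 4 clusters on 4 chromosomes and fall into 13 paralog groups, and all genes of a cluster are read from the same strand. The genes at the 3′ end of a cluster (low group numbers) are active in the hindbrain and neck, and those at the 5′ end (high group numbers) in the lower trunk, the genital tract and the ends of the limbs. Adult fibroblasts keep in culture a HOX pattern that marks the body site they came from, and Polycomb proteins hold the unused part of each cluster silent. The HOX genes described here are every row, out of 19479 genes, whose symbol is HOXA, HOXB, HOXC or HOXD followed by a number, which gave 39 genes: 11 in HOXA, 10 in HOXB, 9 in HOXC and 9 in HOXD.

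RNA was sequenced from AC16, a human cell line made by fusing adult ventricular heart cells with an SV40-transformed fibroblast line and labelled here as cardiomyocytes. The cultures had been kept in 25 mM or 5 mM glucose for at least 3 passages and were held at that level for 24 h after replating. There were 4 groups of 2 libraries: cultures kept at 25 mM and then given 50 mM for 24 h (25 to 50 mM), cultures left at 25 mM, cultures kept at 5 mM and then given 50 mM for 24 h (5 to 50 mM), and cultures left at 5 mM. The study compared each 50 mM group with its own starting glucose. The submitters describe the replicates as technical, so that p-values measure the spread between libraries and not between independent cultures. The values are RPKM (reads per kilobase of gene length, scaled to the size of the library), and the gene lengths implied by the values are coding lengths. The library totals implied by the values were 21538898 to 27372851 reads, of which the listed genes held 99.94% to 99.95%. These are the totals behind the RPKM scale and need not equal the reads sequenced. On this scale 3 reads, the floor for a gene without reads, correspond to 0.0823 to 0.213 RPKM for a HOX gene. Of 22 cardiomyocyte markers, 2 averaged at least 1 RPKM over the 8 libraries (NPPA and ACTC1), 17 stayed under 1 RPKM in all 8, and MYL2, MB and CASQ2 were listed at 0. All 15 fibroblast markers averaged at least 1 RPKM. Most defining cardiomyocyte transcripts were thus listed at 0 or near 0 in cells labelled as cardiomyocytes.

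Each HOX cluster had its own profile of transcript levels: HOXA peaked at group 9, HOXB at groups 7 and 2, and HOXC and HOXD at group 8, while HOXB1, HOXC12, HOXD12 and HOXD13 were at or next to 0. A gene was counted as detected when it averaged at least 1 RPKM over the 8 libraries, which held for 23 of 39 HOX genes. A further 14 averaged less than that, and HOXC12 and HOXD13 were listed at 0 in all 8 libraries. Detected genes were 8 of 11 in HOXA, 8 of 10 in HOXB, 4 of 9 in HOXC and 3 of 9 in HOXD. The highest means over the 8 libraries were those of HOXB7 (23.6 RPKM), HOXB2 (23.3 RPKM), HOXA9 (16.2 RPKM) and HOXC8 (14.5 RPKM). Against all genes above 0 in at least 1 library, HOXB7 stood at the 66.5th percentile, so that even the leading HOX gene was of moderate level. HOXA3, at 1.14 RPKM, was the lowest gene counted as detected, and HOXC11, at 0.988 RPKM, the highest below the line.

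**Figure D1:**
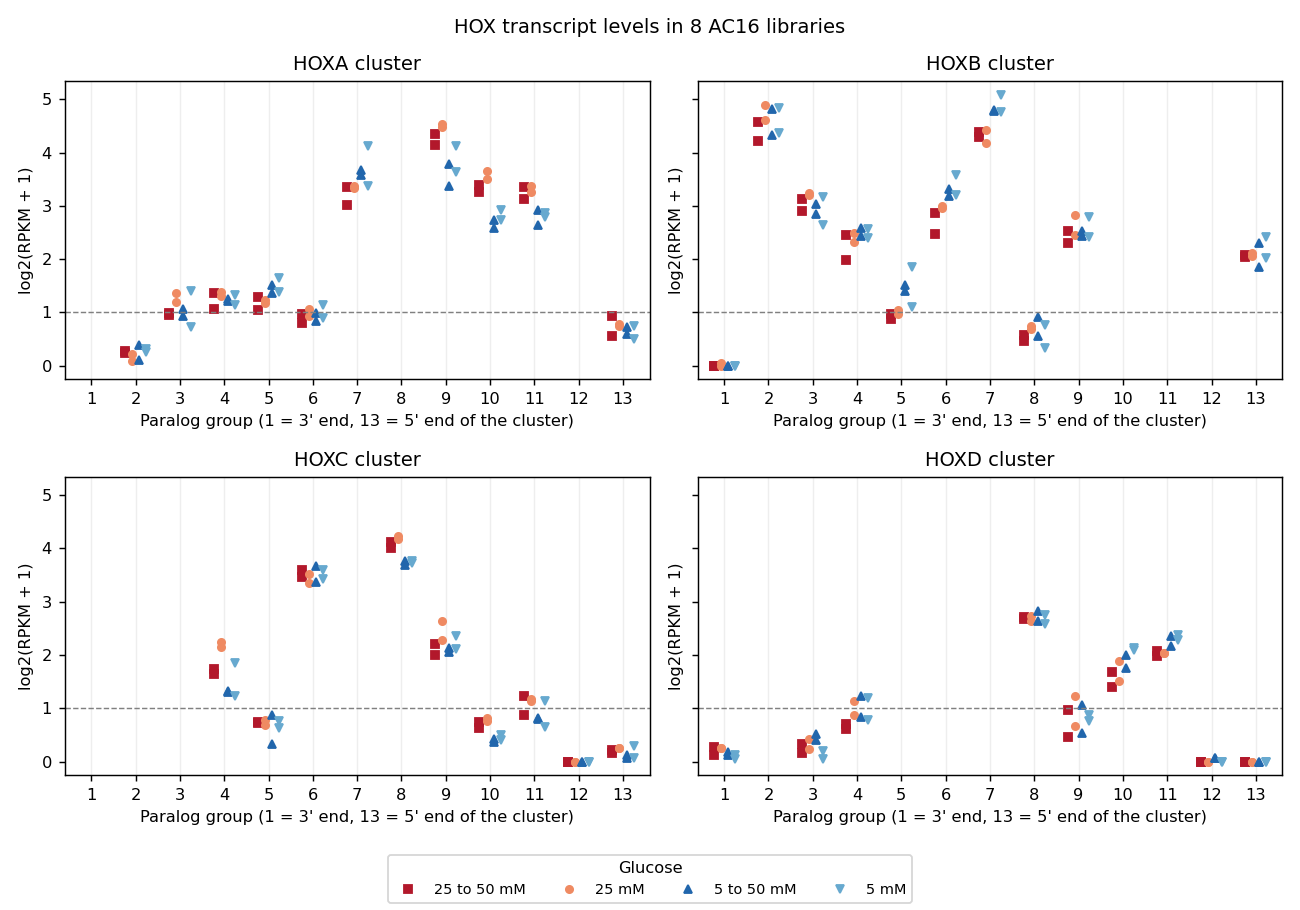
HOX transcript level, as log2(RPKM + 1), by paralog group in the 4 clusters, with 1 symbol per library and 1 colour per glucose group; the dashed line marks 1 RPKM. HOXB7 and HOXB2 are the highest at means of 23.6 and 23.3 RPKM, and HOXC12 and HOXD13 lie at 0.

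The HOXA cluster lies on chromosome 7 (minus strand, GRCh38, GENCODE 29) and peaked at its 5′ side, at HOXA9. HOXA3, needed for the thymus and parathyroid glands in the mouse, had 0.977 and 0.932 RPKM at 25 to 50 mM, 1.295 and 1.58 at 25 mM, 1.09 and 0.905 at 5 to 50 mM, and 0.662 and 1.65 at 5 mM. HOXA4 had 1.098 and 1.58 RPKM at 25 to 50 mM, 1.48 and 1.61 at 25 mM, 1.33 and 1.39 at 5 to 50 mM, and 1.21 and 1.52 at 5 mM. Both were among the weaker detected HOX genes, and the libraries started at 25 and 5 mM overlapped for each. HOXA5, a regulator of lung and trachea development in the mouse, had 1.05 and 1.43 RPKM at 25 to 50 mM, 1.34 and 1.27 at 25 mM, 1.84 and 1.59 at 5 to 50 mM, and 1.599 and 2.11 at 5 mM. HOXA7 had 9.22 and 7.104 RPKM at 25 to 50 mM, 9.09 and 9.295 at 25 mM, 11 and 11.7 at 5 to 50 mM, and 9.38 and 16.5 at 5 mM. For both, all 4 libraries started at 25 mM lay below all 4 libraries started at 5 mM, in HOXA7 narrowly (9.295 against 9.38 RPKM). HOXA9, known for its part in blood stem cells and leukaemia, had 19.4 and 16.7 RPKM at 25 to 50 mM, 21.3 and 22.1 at 25 mM, 12.9 and 9.303 at 5 to 50 mM, and 11.5 and 16.3 at 5 mM. HOXA10, which is needed in the mouse uterus, had 9.47 and 8.57 RPKM at 25 to 50 mM, 10.4 and 11.6 at 25 mM, 5.002 and 5.66 at 5 to 50 mM, and 5.65 and 6.55 at 5 mM. HOXA11, a forearm and uterus gene, had 9.29 and 7.78 RPKM at 25 to 50 mM, 9.31 and 8.64 at 25 mM, 6.55 and 5.26 at 5 to 50 mM, and 6.26 and 5.93 at 5 mM. HOXA9, HOXA10 and HOXA11 are neighbours in the cluster, and in each of them every library started at 25 mM was above every library started at 5 mM. The margin was narrow in HOXA9 (16.7 against 16.3 RPKM). How many of all genes split the libraries in this way was not counted. Such splits, here and in the other clusters, therefore cannot be read as a trait of HOX genes, and whether they are one was not tested. By another measure, the test given below, 39.1% and 41.4% of all genes passed between the starting levels. HOXA2, HOXA6 and HOXA13 were low: HOXA2 ranged over 0.0651 to 0.303 RPKM, HOXA6 over 0.753 to 1.197 RPKM and HOXA13, the digit and genital tract gene at the 5′ end, over 0.407 to 0.906 RPKM. Whether the authors counted reads by strand is not given in the sources used here, and antisense genes cover 69.9% of the coding bases of HOXA11 (HOXA11-AS) and 45.3% of those of HOXA7 (HOXA-AS3), whose reads cannot then be told apart. HOXA9 shares 40.2% of its coding bases with exons of AC004080.3 on the same strand, against 0.8% for HOXA10.

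The HOXB cluster lies on chromosome 17 (48528526 to 48729178, minus strand) and held the 2 highest HOX genes. HOXB2, a hindbrain gene, had 22.9 and 17.7 RPKM at 25 to 50 mM, 23.6 and 28.8 at 25 mM, 27.03 and 19.1 at 5 to 50 mM, and 19.6 and 27.6 at 5 mM. HOXB3 had 7.72 and 6.46 RPKM at 25 to 50 mM, 8.24 and 8.41 at 25 mM, 7.24 and 6.21 at 5 to 50 mM, and 5.27 and 7.92 at 5 mM. HOXB4, which expands blood stem cells when supplied in excess, had 4.47 and 2.97 RPKM at 25 to 50 mM, 4.02 and 4.63 at 25 mM, 4.42 and 5.01 at 5 to 50 mM, and 4.24 and 4.93 at 5 mM. None of the 3 separated the libraries by starting glucose. HOXB5 had 0.954 and 0.8401 RPKM at 25 to 50 mM, 1.07 and 0.954 at 25 mM, 1.85 and 1.65 at 5 to 50 mM, and 1.15 and 2.62 at 5 mM. HOXB6 had 6.27 and 4.57 RPKM at 25 to 50 mM, 6.78 and 6.98 at 25 mM, 9.01 and 8.04 at 5 to 50 mM, and 8.25 and 10.9 at 5 mM. HOXB7 had 20.03 and 18.5 RPKM at 25 to 50 mM, 17.1 and 20.5 at 25 mM, 26.5 and 26.9 at 5 to 50 mM, and 26.2 and 33.01 at 5 mM. These 3 neighbours had their 4 libraries started at 25 mM below the 4 started at 5 mM, by a wide margin in HOXB7, where no antisense or other gene shares the coding bases. HOXB9 had 3.94 and 4.73 RPKM at 25 to 50 mM, 6.07 and 4.45 at 25 mM, 4.44 and 4.75 at 5 to 50 mM, and 5.92 and 4.32 at 5 mM. HOXB13, the 5′ end gene known from the prostate and the lower bowel, had 3.09 and 3.23 RPKM at 25 to 50 mM, 3.33 and 3.19 at 25 mM, 2.61 and 3.93 at 5 to 50 mM, and 3.04 and 4.36 at 5 mM. Both overlapped between the groups, and HOXB13 was detected although it lies far from the other HOXB genes. HOXB8, between the strongly transcribed HOXB7 and the detected HOXB9, ranged over 0.254 to 0.878 RPKM, and HOXB1, at the 3′ end, had 1 read in the 8 libraries together. In HOXB6, 20.6% of the coding bases lie opposite HOXB-AS3.

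The HOXC cluster lies on chromosome 12 (53938765 to 54056030, plus strand) and peaked at HOXC8. HOXC4 had 2.35 and 2.12 RPKM at 25 to 50 mM, 3.73 and 3.43 at 25 mM, 1.46 and 1.52 at 5 to 50 mM, and 1.34 and 2.62 at 5 mM. HOXC6, a gene of the upper thorax, had 10.1 and 11.1 RPKM at 25 to 50 mM, 9.27 and 10.4 at 25 mM, 11.7 and 9.302 at 5 to 50 mM, and 9.77 and 11.04 at 5 mM. HOXC8, a gene of the lower neck and thorax, had 16.5 and 14.99 RPKM at 25 to 50 mM, 17.9 and 17.1 at 25 mM, 12.6 and 11.9 at 5 to 50 mM, and 12.2 and 12.5 at 5 mM. HOXC8 separated the libraries by starting glucose without overlap, whereas HOXC4, highest in the 2 libraries at 25 mM, and HOXC6 did not. HOXC9, which sets thoracic motor neuron identity in the mouse, had 3.64 and 3.02 RPKM at 25 to 50 mM, 3.88 and 5.22 at 25 mM, 3.17 and 3.41 at 5 to 50 mM, and 3.32 and 4.15 at 5 mM. The groups overlapped for HOXC9 too. HOXC5 ranged over 0.257 to 0.832 RPKM, HOXC10 over 0.291 to 0.751 RPKM, HOXC11 over 0.558 to 1.33 RPKM and HOXC13, the hair and nail gene, over 0.0434 to 0.221 RPKM. HOXC12 had no read in 8 libraries, where 3 reads would have been 0.129 to 0.164 RPKM. Within the low genes, HOXC10 had 0.672 and 0.545 RPKM at 25 to 50 mM, 0.692 and 0.751 at 25 mM, 0.291 and 0.335 at 5 to 50 mM, and 0.406 and 0.3195 at 5 mM, so that the libraries started at 25 mM again lay above the others, but it did not reach 1 RPKM and was left out by the filter; with no filter it passed as higher in both comparisons between the starting levels.

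The HOXD cluster, on chromosome 2 (176092891 to 176190907, plus strand), was the weakest and was led by HOXD8. HOXD8 had 5.36 and 5.59 RPKM at 25 to 50 mM, 5.67 and 5.23 at 25 mM, 6.08 and 5.23 at 5 to 50 mM, and 4.95 and 5.73 at 5 mM. HOXD10, a limb and lumbar gene, had 2.19 and 1.64 RPKM at 25 to 50 mM, 2.71 and 1.84 at 25 mM, 2.39 and 2.99 at 5 to 50 mM, and 3.36 and 3.25 at 5 mM. HOXD11, which shapes the forearm together with HOXA11, had 2.96 and 3.19 RPKM at 25 to 50 mM, 3.097 and 3.11 at 25 mM, 4.13 and 3.47 at 5 to 50 mM, and 3.84 and 4.17 at 5 mM. HOXD8 differed little over the 8 libraries, and HOXD11 was lower in each library started at 25 mM than in any started at 5 mM. HOXD1 ranged over 0.03701 to 0.203 RPKM, HOXD3 over 0.0357 to 0.429 RPKM, HOXD4 over 0.5298 to 1.34 RPKM and HOXD9 over 0.384 to 1.35 RPKM. HOXD12 had 2 reads in all, and HOXD13, the digit gene at the 5′ end, had none, where 3 reads would have been 0.106 to 0.135 RPKM. All coding bases of HOXD3 and 87.4% of those of HOXD4 lie in exons of AC009336.2 on the same strand, and 23.2% of those of HOXD11 in exons of HOXD10, so that their values are uncertain where reads could go to either gene.

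The 39 HOX genes summed to 154.3 to 199.8 RPKM per library, and the split of this sum between clusters differed with the starting glucose. HOXA took 31.9% to 32.4% of it in the 4 libraries started at 25 mM, against 25.3% to 27.7% in the 4 started at 5 mM. HOXB took 38.5% to 41.1% in the libraries started at 25 mM, against 47.0% to 48.4% in those started at 5 mM. HOXC took 20.4% to 21.7% in the libraries started at 25 mM, against 16.3% to 18.1% in those started at 5 mM. The ranges of these 3 clusters did not overlap, and those of HOXD (6.5% to 8.0% when started at 25 mM, against 7.7% to 8.9% when started at 5 mM) did. These shares are descriptions, with no test, and shares of 1 sum depend on each other. In RPKM, the HOXA sums overlapped (49.17 to 60.97 when started at 25 mM, 40.21 to 55.41 when started at 5 mM). So did the HOXB sums (59.37 to 78.56 and 73.86 to 96.29), whereas the HOXC sums did not (33.45 to 39.02 and 27.48 to 32.63). Within the 5 mM group the HOX sum was 199.8 RPKM in replicate 3 and 157.0 RPKM in replicate 1, and 19 of 23 detected HOX genes were higher in replicate 3, by a median of 0.25 on the log2(RPKM + 1) scale against 0.004 over all genes. The values of HOXA7, HOXA9, HOXB2 and HOXB7 in the 5 mM group differed the same way.

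**Figure D2:**
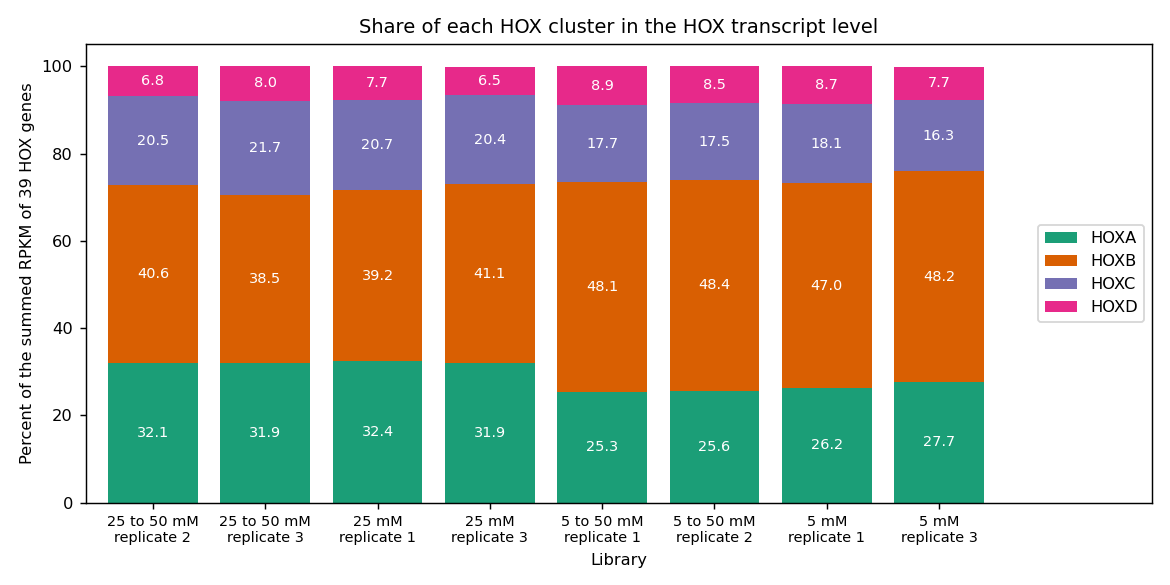
Percent of the summed RPKM of the 39 HOX genes that each cluster took, with 1 stacked bar per library. HOXA takes 31.9% to 32.4% in the 4 bars on the left (started at 25 mM) and 25.3% to 27.7% in the 4 on the right (started at 5 mM), while HOXB takes 38.5% to 41.1% on the left and 47.0% to 48.4% on the right.

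Cultures kept at 25 mM differed from cultures kept at 5 mM in a few HOX genes: HOXA9, HOXA10, HOXA11 and HOXC8 were higher and HOXB7 was lower, both before and after 24 h at 50 mM. At the maintenance glucose (25 mM against 5 mM), 27 HOX genes passed the filter of 1 RPKM in at least 2 libraries and 6 passed limma's test at an adjusted p of 0.05, 5 higher and 1 lower. Over all 11941 genes tested, 39.1% passed, 17.0% higher and 22.1% lower, so the 22.2% of HOX genes that passed was below the share of all genes and is no result about HOX genes as a class. The median HOX change was 0.03 on the log2(RPKM + 1) scale and that of all genes was -0.004. At 50 mM (25 to 50 mM against 5 to 50 mM), 6 of 27 passed, 4 higher and 2 lower, beside 41.4% of all genes, 18.1% higher and 23.3% lower. In counts, 2164 genes were higher and 2782 lower, and with each library centred on its median 2799 were higher and 2377 lower, while the same number of HOX genes, 6, passed. Here the median HOX change was -0.03, and that of all genes was -0.02. The 2 comparisons use different libraries and 1 shared estimate of error. In all, 5 genes passed in both, all in the same direction, out of 7 that passed in either, and 18 of 27 had the same sign. The shares of all genes that passed in both or kept their sign were not computed. These counts are therefore no result about HOX genes as a class.

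HOXA10 had the smallest adjusted p of the HOX genes in both comparisons; log2 changes are given with their SE. It averaged 11.01 ± 0.901 RPKM at 25 mM and 6.098 ± 0.636 RPKM at 5 mM (SD, 2 libraries each), a log2 change of 0.76 ± 0.10 (SE; limma adjusted p = 0.00106). After the step to 50 mM it averaged 9.02 ± 0.636 RPKM at 25 to 50 mM and 5.33 ± 0.462 RPKM at 5 to 50 mM, a log2 change of 0.66 ± 0.10 (adjusted p = 0.0019). It passed under all 14 alternative settings in both comparisons. HOXA9 differed by 0.63 ± 0.18 at the maintenance glucose (adjusted p = 0.029) and by 0.67 ± 0.18 at 50 mM (adjusted p = 0.0216). Its call rested on single libraries: without 25 mM replicate 1, 25 mM replicate 3 or 5 mM replicate 1 the adjusted p at the maintenance glucose was 0.106, 0.121 or 0.113, and without 25 to 50 mM replicate 2 or 5 to 50 mM replicate 2 it was 0.101 or 0.133 at 50 mM; without 5 mM replicate 1 the log2 change was 0.39. HOXA11 differed by 0.49 ± 0.12 (adjusted p = 0.0136) and by 0.47 ± 0.12 (adjusted p = 0.0158). It no longer passed without 25 mM replicate 1 at the maintenance glucose (0.0861), nor at 50 mM without 25 to 50 mM replicate 2 (0.0908) or 5 to 50 mM replicate 2 (0.107). HOXA3 to HOXA7 did not pass. HOXA7, next to HOXA9, had a log2 change of -0.40 ± 0.22 (adjusted p = 0.193) and of -0.44 ± 0.22 at 50 mM (adjusted p = 0.15). HOXA5 had log2 changes of -0.30 ± 0.13 (adjusted p = 0.103) and, at 50 mM, -0.28 ± 0.13 (adjusted p = 0.122). Within 1 cluster, estimates above 0 for groups 9 to 11 thus stood beside estimates below 0 for groups 5 and 7, of which those for 9 to 11 passed.

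HOXC8 was higher by 0.47 ± 0.07 on the log2 scale at the maintenance glucose (17.5 ± 0.515 RPKM at 25 mM and 12.4 ± 0.212 RPKM at 5 mM; adjusted p = 0.00191). At 50 mM the difference was 0.34 ± 0.07 (adjusted p = 0.00797), and it did not pass without 25 to 50 mM replicate 2 (0.0545) or 5 to 50 mM replicate 2 (0.0644). HOXC4 was higher at the maintenance glucose by 0.65 ± 0.18 (adjusted p = 0.0261), but not without 25 mM replicate 1 (0.127), 25 mM replicate 3 (0.0832) or 5 mM replicate 1 (log2 change 0.34, adjusted p = 0.053). At 50 mM its change was 0.38 ± 0.18 (adjusted p = 0.139), and the difference between the 2 comparisons, -0.27 ± 0.26, did not pass (adjusted p = 0.971). HOXB7 was lower in cultures kept at 25 mM: 18.8 ± 2.37 RPKM at 25 mM and 29.6 ± 4.82 RPKM at 5 mM, a log2 change of -0.62 ± 0.12 (adjusted p = 0.00506). At 50 mM the change was -0.45 ± 0.12 (adjusted p = 0.0192), which did not pass without 25 to 50 mM replicate 3 (0.099), 5 to 50 mM replicate 1 (0.0807) or 5 to 50 mM replicate 2 (0.0876). HOXB6, its neighbour, was lower at 50 mM, with a log2 change of -0.58 ± 0.16 (adjusted p = 0.0206) and had -0.41 ± 0.16 at the maintenance glucose (adjusted p = 0.073). The call at 50 mM did not hold without 25 to 50 mM replicate 3 (log2 change -0.39, adjusted p = 0.117), 5 to 50 mM replicate 1 (0.117) or 5 to 50 mM replicate 2 (0.0562). HOXB5 had log2 changes of -0.47 ± 0.22 (adjusted p = 0.122) and, at 50 mM, -0.54 ± 0.22 (adjusted p = 0.0828). At the maintenance glucose its change was -0.85 without 5 mM replicate 1, which passed (adjusted p = 0.00196), and -0.096 without 5 mM replicate 3 (0.575). At 50 mM it passed without 5 mM replicate 1 (0.00443) or 5 mM replicate 3 (0.00455), which enter there only through the shared estimate of error, and the adjusted p reached 0.259 without 5 to 50 mM replicate 1. In HOXD no gene passed; HOXD11 had -0.28 ± 0.10 (adjusted p = 0.054) and -0.23 ± 0.10 at 50 mM (adjusted p = 0.0947).

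**Figure D3:**
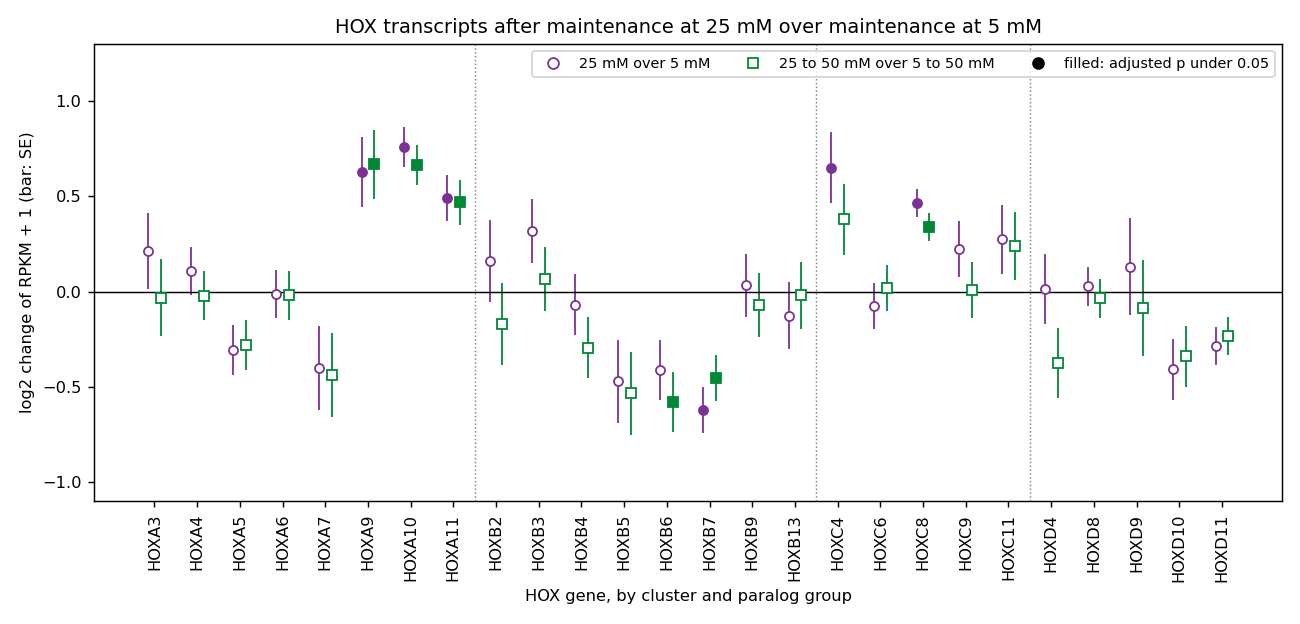
Log2 change of RPKM + 1 with its SE for HOX genes tested, for 25 mM over 5 mM (circles) and 25 to 50 mM over 5 to 50 mM (squares); filled symbols passed at an adjusted p under 0.05. HOXA9, HOXA10, HOXA11 and HOXC8 lie above 0 and HOXB7 below 0 with filled symbols in both comparisons.

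**Figure D4:**
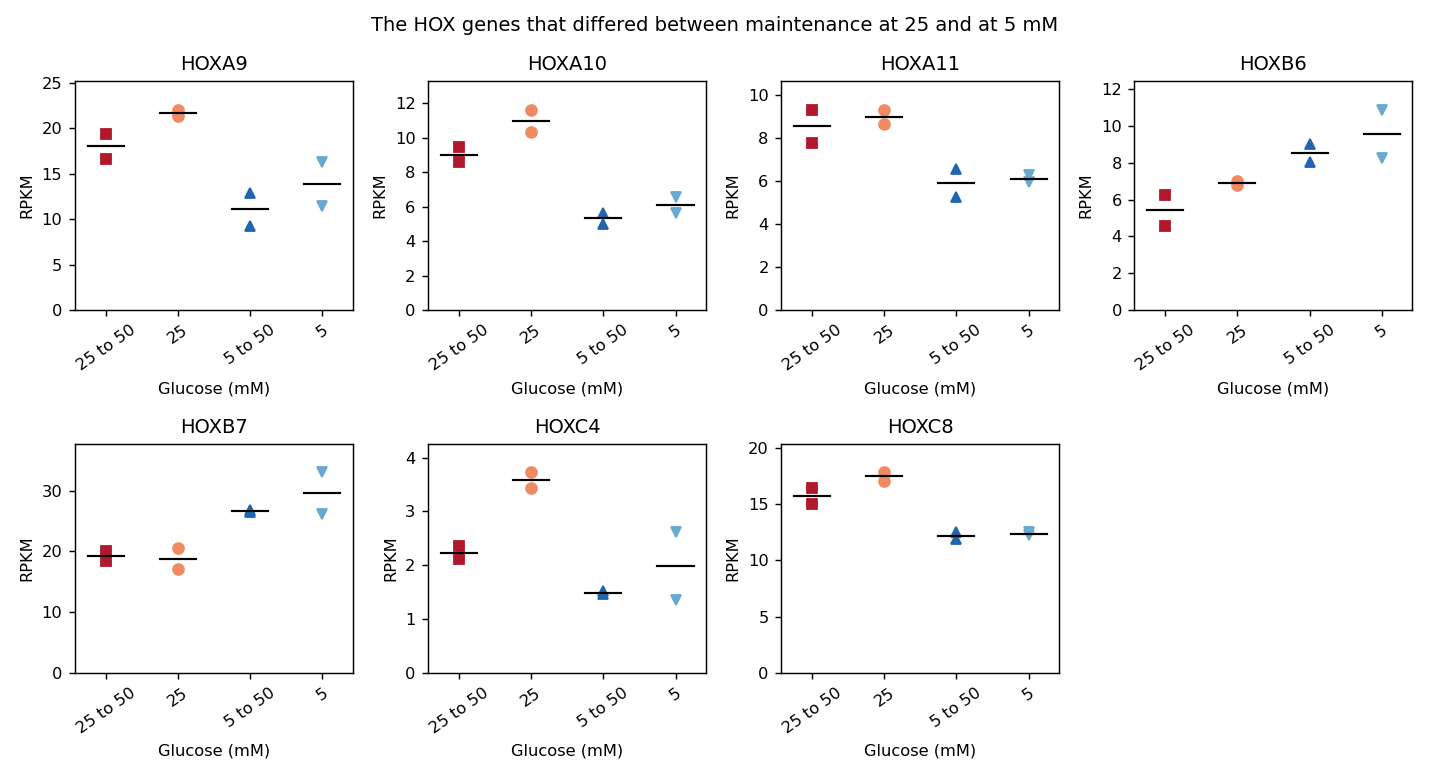
RPKM of the 7 HOX genes that passed in either comparison, with 1 symbol per library and a line at the group mean; glucose is given in mM. HOXA10 lies at 8.57 to 11.6 RPKM in the 4 libraries started at 25 mM and at 5.00 to 6.55 RPKM in the 4 started at 5 mM.

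The 2 starting glucose levels were deposited as separate tables, and the labels give neither dates nor passage numbers beyond the minimum. Starting glucose, culture and table therefore cannot be told apart in these differences, and in bulk RNA fewer cells of a type and less RNA per cell cannot be told apart either. The upper quartiles of the 8 libraries lay within 1.05-fold of each other. The sums of several marker lists differed with the starting glucose as well, while single members went either way. The 10 blood cell markers summed to 86.4 to 93.6 RPKM in libraries started at 25 mM, against 221.8 to 258.3 RPKM in those started at 5 mM. Nearly all of that was CD68, a lysosomal protein of macrophages that other cells make too. LAPTM5, a white blood cell protein, had 0.0516 and 0.0507 RPKM at 25 to 50 mM, 0.0475 and 0.187 at 25 mM, 5.27 and 4.86 at 5 to 50 mM, and 4.53 and 6.34 at 5 mM, while CD3E and MS4A1 were at 0 and 6 of 10 stayed under 1 RPKM in every library. Of 3 tested at 25 mM against 5 mM, 0 were higher and 2 lower. PTPRC, under 1 RPKM throughout, went the other way. Its means were 0.199 (25 to 50 mM) and 0.165 RPKM (25 mM), against 0.119 (5 to 50 mM) and 0.105 RPKM (5 mM). The 22 cardiomyocyte markers summed to 3.34 to 6.0 RPKM in libraries started at 25 mM, against 7.72 to 11.3 RPKM in those started at 5 mM. Of 4 tested at 25 mM against 5 mM, 1 was higher and 2 lower, beside 17.0% and 22.1% of all genes. TNNC1 went against the sum there, with means of 1.07 RPKM at 25 mM and 0.236 RPKM at 5 mM. The 10 endothelial markers, with CDH5 at 0, summed to 4.86 to 5.73 RPKM when started at 25 mM, against 6.44 to 7.99 RPKM when started at 5 mM. Of 2 tested at 25 mM against 5 mM, 0 were higher and 1 lower. TEK, the most abundant of them, went against the sum. Its means were 4.305 (25 to 50 mM) and 3.774 RPKM (25 mM), against 3.759 (5 to 50 mM) and 2.935 RPKM (5 mM). For the 10 epithelial markers, with GRHL2 at 0, the sums were 172.5 to 186.7 RPKM when started at 25 mM, against 208.9 to 236.9 RPKM when started at 5 mM. Most of that was KRT18 (mean 178.7 RPKM over the 8 libraries). Of 4 tested at 25 mM against 5 mM, 0 were higher and 1 lower. CDH1 went against the sum. Its means were 0.837 (25 to 50 mM) and 0.632 RPKM (25 mM), against 0.381 (5 to 50 mM) and 0.18 RPKM (5 mM). Of 15 fibroblast markers, 7 were higher and 5 lower at 25 mM against 5 mM (12 of 15, beside 39.1% of all genes), and their sums overlapped. The part of these cells or transcripts in the HOX differences was not tested.

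The promoter windows of HOXA7, HOXA9, HOXA10 and HOXA11, whose levels split the libraries, and of HOXC4 are shown. They were chosen because neighbours in the HOXA cluster had estimates of opposite sign. RefSeq windows (GRCh38.p14, 250 bases before to 50 after a start) were matched for 20 of 39 HOX genes. HOXA5, which split the libraries too, HOXB6, HOXB7 and HOXC8 had no matched window and are named only. Each window is written 5′ to 3′ on the gene's strand, with matches to TATAAA and CCAAT on either strand in capitals (TTTATA and ATTGG are their reverse complements). HOXA7 is at chr7:27156626-27156925 (minus), HOXA9 at chr7:27165488-27165787 (minus), HOXA10 at chr7:27174271-27174570 (minus, 1 of its 2 windows), HOXA11 at chr7:27185183-27185482 (minus), and HOXC4 at chr12:54016638-54016937 (plus, the same window as that of HOXC5).
HOXA7: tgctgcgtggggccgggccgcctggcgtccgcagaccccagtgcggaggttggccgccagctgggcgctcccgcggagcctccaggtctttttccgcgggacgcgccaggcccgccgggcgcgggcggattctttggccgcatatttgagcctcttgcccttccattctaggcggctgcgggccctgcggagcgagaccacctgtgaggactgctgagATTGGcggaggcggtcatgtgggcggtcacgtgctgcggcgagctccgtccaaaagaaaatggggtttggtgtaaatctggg
HOXA9: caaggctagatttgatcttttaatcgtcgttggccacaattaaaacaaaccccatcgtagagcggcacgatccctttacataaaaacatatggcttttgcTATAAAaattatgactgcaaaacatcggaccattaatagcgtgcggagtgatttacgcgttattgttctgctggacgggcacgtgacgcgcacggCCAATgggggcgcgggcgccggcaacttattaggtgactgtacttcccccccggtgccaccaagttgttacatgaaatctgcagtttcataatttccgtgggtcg
HOXA10: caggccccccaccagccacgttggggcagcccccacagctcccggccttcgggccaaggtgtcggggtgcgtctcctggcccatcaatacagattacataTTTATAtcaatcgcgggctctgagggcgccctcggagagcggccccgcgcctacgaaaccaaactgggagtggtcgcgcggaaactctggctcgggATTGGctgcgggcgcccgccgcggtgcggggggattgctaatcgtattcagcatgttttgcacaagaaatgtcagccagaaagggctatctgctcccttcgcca
HOXA11: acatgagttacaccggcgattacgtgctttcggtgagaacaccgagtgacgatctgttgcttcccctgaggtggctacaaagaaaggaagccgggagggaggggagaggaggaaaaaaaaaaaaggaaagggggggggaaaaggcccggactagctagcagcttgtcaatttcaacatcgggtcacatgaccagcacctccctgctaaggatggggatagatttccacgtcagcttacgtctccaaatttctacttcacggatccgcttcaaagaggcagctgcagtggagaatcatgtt
HOXC4: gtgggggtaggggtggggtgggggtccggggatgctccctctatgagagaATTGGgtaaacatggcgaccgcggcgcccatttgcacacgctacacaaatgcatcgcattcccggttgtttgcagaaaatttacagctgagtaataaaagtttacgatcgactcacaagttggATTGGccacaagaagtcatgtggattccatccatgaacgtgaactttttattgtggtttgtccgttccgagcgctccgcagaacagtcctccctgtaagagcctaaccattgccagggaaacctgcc

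HOXA9 and this HOXA10 window each held 1 TATAAA match, beginning at position -150 from the start, and 1 CCAAT match, at -55 in HOXA9 and -54 in HOXA10. On the gene's own strand these were TATAAA and CCAAT in HOXA9 and their reverse complements in HOXA10. HOXA7 held a CCAAT match at -32 and no TATAAA match, HOXC4 held 2 CCAAT matches, and HOXA11 held neither. The other HOXA10 window (chr7:27179812-27180111, minus) held a TATAAA match at -222 and a CCAAT match at -249, both on the gene's own strand, so the positions near those of HOXA9 hold for 1 of its 2 windows. Over all 34943 windows, 11.6% held TATAAA and 34.6% held CCAAT, and over the 26 HOX windows 5 and 17 did. The letters of a joint PBX and HOX site (TGATTNAT, either strand) were in 2 HOX windows and in 2.8% of all windows. A CpG count of at least 0.6 of that expected from base composition was found in 21 of 26 HOX windows and in 48.7% of all windows. The windows of HOX genes with low levels had a median of 22 CpGs, as had those of detected genes. These medians are over windows and not over genes. Many of the 17 windows of detected genes are those of HOXA3, which held 0 to 29 CpGs. The window shared by HOXC4 and HOXC5 was counted once, as detected. A match describes letters only, and the windows that held none say nothing of the factors.

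Raising glucose to 50 mM for 24 h changed no HOX gene past the threshold from either starting level. From 25 mM, 0 of 23 HOX genes tested passed limma's adjusted p of 0.05, and 0 by voom, beside 0.00876% of 11422 genes (1 gene). At an unadjusted p under 0.05 there were 5 HOX genes, all below 0, beside 9.25% of all genes. HOXC4 had 2.23 ± 0.169 RPKM at 25 to 50 mM and 3.58 ± 0.212 RPKM at 25 mM, with no overlap, a log2 change of -0.50 ± 0.11 (adjusted p = 0.453). HOXB2 had -0.36 ± 0.14 (adjusted p = 0.526), and HOXC6, with an estimate above 0, had 0.10 ± 0.09 (adjusted p = 0.735). HOXA9 had -0.26 ± 0.09, HOXA10 -0.26 ± 0.09 and HOXA3 -0.32 ± 0.12, with adjusted p-values of 0.502, 0.507 and 0.526. In all, 19 of 23 HOX estimates lay below 0 (82.6%, beside 63.7% of all genes), with a median of -0.16 beside -0.035 over all genes. Without 25 to 50 mM replicate 2, the library whose HOX sum was the higher of its pair (172.2 RPKM, against 154.3 RPKM in replicate 3), HOXA9, HOXB2, HOXB6 and HOXC4 passed as lower, and 777 genes passed in all.

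From 5 mM, 0 of 24 HOX genes passed by limma and 0 by voom, beside 0.329% of 11849 genes (39 genes), and none had an unadjusted p under 0.05, beside 10.5% of all genes. The largest estimates below 0 were those of HOXA9, -0.30 ± 0.21 (adjusted p = 0.703), and HOXC4, -0.23 ± 0.22 (adjusted p = 0.789). Above 0 they were those of HOXD8, 0.07 ± 0.12 (adjusted p = 0.902), and HOXB3, 0.04 ± 0.19 (adjusted p = 0.963). With 1 library left out, the change of HOXA9 was -0.54 (5 mM replicate 1), -0.51 (5 to 50 mM replicate 1), -0.083 (5 to 50 mM replicate 2) or -0.059 (5 mM replicate 3), with adjusted p-values of 0.117 to 1.0. The median was -0.07, beside -0.03 over all genes, and the SE of single genes ran from 0.08 to 0.25, so that changes of this size were not detectable with 2 libraries a group. Without 5 mM replicate 1, the library with the lower HOX sum of its pair, HOXA7 and HOXB7 passed as lower, and 805 genes passed in all. The difference between the 2 responses (25 to 50 minus 25, minus 5 to 50 minus 5) passed for 0 of 27 HOX genes by limma and 0 by voom, beside 0.0251% of 11941 genes (3 genes), and for none at an unadjusted p under 0.05, beside 6.04% of all genes. HOXB2 (-0.33 ± 0.30) and HOXC4 (-0.27 ± 0.26) had estimates below 0 and HOXB7 (0.17 ± 0.17) above 0, each with an adjusted p of 0.971.

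**Figure D5:**
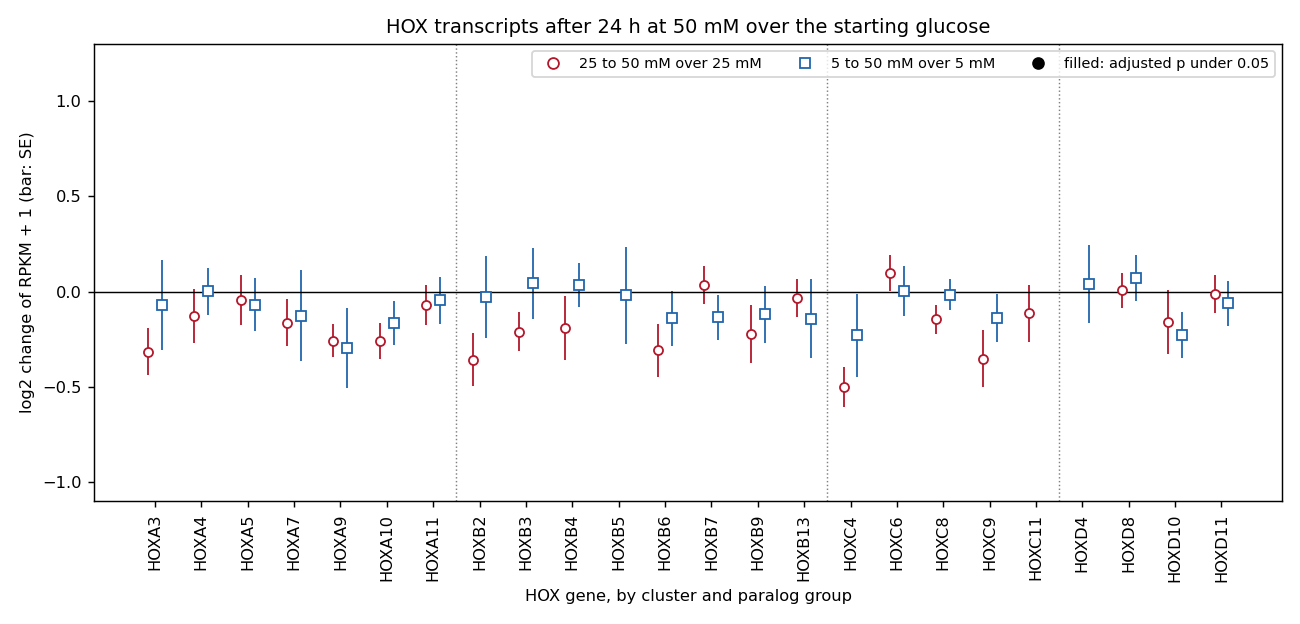
Log2 change of RPKM + 1 with its SE after 24 h at 50 mM, for 25 to 50 mM over 25 mM (circles) and 5 to 50 mM over 5 mM (squares), each from its own 4 libraries. No symbol is filled, since no HOX gene passed, and 19 circles lie below 0.

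HOX proteins bind DNA together with TALE homeodomain cofactors (the PBX, MEIS and PKNOX families), and all 9 of these genes were expressed at 1 RPKM or more on average. In cultures kept at 25 mM, 5 of 9 were higher and 0 lower than at 5 mM, beside 17.0% higher and 22.1% lower of all genes, and at 50 mM 6 were higher and 1 lower, beside 18.1% and 23.3%. MEIS2 had 22.9 and 22.4 RPKM at 25 to 50 mM, 22.9 and 22.9 at 25 mM, 12.2 and 11.8 at 5 to 50 mM, and 14.4 and 13.2 at 5 mM, a log2 change of 0.69 ± 0.07 at the maintenance glucose (adjusted p = 0.000186) and 0.86 ± 0.07 at 50 mM (adjusted p = 5.52e-05). It split the 8 libraries by starting glucose with no overlap. PBX3 (0.49 ± 0.09 and 0.56 ± 0.09), MEIS1 (0.51 ± 0.10 and 0.42 ± 0.10) and PKNOX1 (0.22 ± 0.06 and 0.26 ± 0.06) were higher in both comparisons. PBX4 was higher (0.46 ± 0.14) and PKNOX2 lower (-0.33 ± 0.11) at 50 mM, and 0 of 9 TALE genes passed the test of the difference between the responses. MEIS3, at the highest mean of the list (28.4 RPKM), did not pass. The list's median change was 0.38 at the maintenance glucose and 0.42 at 50 mM, beside -0.004 and -0.02 over all genes. Neither rise to 50 mM gave a call in this list.

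Polycomb complexes keep HOX genes silent and trithorax complexes keep them active. Of 35 such genes, BMI1, a Polycomb subunit, was listed at 0 in all 8 libraries. Whether a listed 0 means that no transcript was present was not tested. Of 34 such genes tested, 6 were higher and 6 lower at 25 mM against 5 mM, and 5 were higher and 6 lower at 25 to 50 mM against 5 to 50 mM. These 12 of 34 and 11 of 34 stood beside 39.1% and 41.4% of all genes, so neither count is a result about the list, and the members below are given by their own tests; the medians were -0.01 and -0.01. WDR5, a subunit of the trithorax-type methyltransferases, was higher by 0.41 ± 0.06 and 0.40 ± 0.06 (adjusted p = 0.000918 and 0.000921), and CTCF, which sets boundaries inside the clusters, by 0.28 ± 0.05 and 0.29 ± 0.05 (adjusted p = 0.00475 and 0.004). EED, a core subunit of the Polycomb methyltransferase complex, was higher by 0.19 ± 0.05 and 0.29 ± 0.05, and PHF19, an accessory subunit, by 0.33 ± 0.05 and 0.21 ± 0.05. ASH1L was higher in both comparisons (0.39 ± 0.11 and 0.43 ± 0.11), and RNF2, a ubiquitin ligase of the other Polycomb complex, at the maintenance glucose (0.23 ± 0.07). EZH1 was lower, with log2 changes of -0.34 ± 0.08 and -0.33 ± 0.08, and DPY30 was lower too, with -0.39 ± 0.07 and -0.24 ± 0.07. RBBP4 (-0.26 ± 0.06 and -0.18 ± 0.06) and PHC2 (-0.31 ± 0.06 and -0.22 ± 0.06) were lower in both, CBX7 (-0.86 ± 0.26) and CBX2 (-0.35 ± 0.12) at the maintenance glucose, and PCGF2 (-0.32 ± 0.08) and PHC1 (-0.29 ± 0.10) at 50 mM. EZH2, the main methyltransferase, had 42.6 and 43.8 RPKM at 25 to 50 mM, 44.1 and 47.8 at 25 mM, 42.2 and 41.04 at 5 to 50 mM, and 44.3 and 44.2 at 5 mM, and did not pass.

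Retinoic acid switches on the 3′ HOX genes in the embryo. Of 10 genes of its pathway tested, 1 was higher and 2 lower at 25 mM against 5 mM, and 1 was higher and 3 lower at 25 to 50 mM against 5 to 50 mM, which is near or below the 39.1% and 41.4% of all genes that passed. ALDH1A2, which makes retinoic acid, had 13.7 and 13.7 RPKM at 25 to 50 mM, 12.5 and 13.8 at 25 mM, 4.76 and 3.71 at 5 to 50 mM, and 5.101 and 3.63 at 5 mM, a log2 change of 1.42 ± 0.15 (adjusted p = 0.00026) and 1.5 ± 0.15 at 50 mM (adjusted p = 0.000184). CRABP2, which carries it to its receptors, had 14.7 and 15.6 RPKM at 25 to 50 mM, 14.4 and 13.95 at 25 mM, 24.9 and 28.1 at 5 to 50 mM, and 24.8 and 27.6 at 5 mM, a change of -0.84 ± 0.08 (adjusted p = 0.000197) and -0.77 ± 0.08 (adjusted p = 0.000298). These 2 genes separated the starting levels in opposite directions. ALDH1A3, a related enzyme, was lower, with a log2 change of -0.20 ± 0.06 at the maintenance glucose. At 50 mM ALDH1A3 went the other way, with means of 19.0 RPKM at 25 to 50 mM and 16.8 at 5 to 50 mM, and did not pass. The receptor RARA (-0.47 ± 0.11) and the retinol dehydrogenase RDH10 (-0.54 ± 0.12) were lower at 50 mM. A further list held homeobox relatives of the HOX clusters: ParaHox, EVX, MEOX and GBX genes and MNX1. It had 0 of 13 members at a mean of 1 RPKM and 7 at 0. It summed to 0.191 to 0.362 RPKM in libraries started at 25 mM, against 0.930 to 1.25 RPKM in those started at 5 mM. Most of that was MEOX1 and MEOX2, which are neither ParaHox nor EVX genes. MEOX1 had means of 0.132 (25 to 50 mM), 0.170 (25 mM), 0.421 (5 to 50 mM) and 0.536 RPKM (5 mM). MEOX2 had 0.0886, 0.0205, 0.586 and 0.484 RPKM in the same order. EVX1, EVX2, CDX2, CDX4, GSX1 and PDX1 were at 0.

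The genes around the clusters were not silent: 15 of 23 flanking genes in the tables averaged at least 1 RPKM. Of 16 tested, 2 were higher and 3 lower at 25 mM against 5 mM, and 5 were higher and 4 lower at 25 to 50 mM against 5 to 50 mM, beside 39.1% and 41.4% of all genes called. SKAP2, beyond the HOXA cluster, had 19.3 and 19.9 RPKM at 25 to 50 mM, 18.8 and 22.3 at 25 mM, 29.2 and 28.3 at 5 to 50 mM, and 32.4 and 32.3 at 5 mM. CBX1, near the HOXB cluster, had 231 and 227 RPKM at 25 to 50 mM, 235 and 232 at 25 mM, 192 and 191 at 5 to 50 mM, and 187 and 177 at 5 mM. HNRNPA1, beside the HOXC cluster, reached 1357 RPKM, far above any HOX gene. The libraries started at 25 mM were thus all lower for SKAP2, and all higher for CBX1, than those started at 5 mM.

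Other transcription factors that mark position included some with larger changes than any HOX gene. PRRX1, a factor of limb and lateral mesoderm, had 2.72 and 2.17 RPKM at 25 to 50 mM, 2.46 and 2.09 at 25 mM, 24.4 and 24.2 at 5 to 50 mM, and 17.4 and 21.8 at 5 mM, a log2 change of -2.65 ± 0.13 at the maintenance glucose (adjusted p = 7.68e-06) and -2.88 ± 0.13 at 50 mM (adjusted p = 3.95e-06). FOXF1, a factor of gut and lung mesenchyme, had 1.04 and 0.737 RPKM at 25 to 50 mM, 0.987 and 0.969 at 25 mM, 9.43 and 9.704 at 5 to 50 mM, and 5.702 and 9.74 at 5 mM, a change of -2.10 ± 0.20 (adjusted p = 0.000171) and -2.49 ± 0.20 (adjusted p = 6.67e-05). GATA4, a factor of the heart and other lateral mesoderm, had 0.305 and 0.511 RPKM at 25 to 50 mM, 0.253 and 0.5803 at 25 mM, 2.67 and 2.68 at 5 to 50 mM, and 2.89 and 3.18 at 5 mM, a change of -1.52 ± 0.14 (adjusted p = 0.000127) and -1.39 ± 0.14 (adjusted p = 0.00018). All 3 were low in every library started at 25 mM and higher, without overlap, in those started at 5 mM. PRRX2, the relative of PRRX1, went the other way, with 0.91 ± 0.20 (adjusted p = 0.00986) and 0.74 ± 0.20 (adjusted p = 0.0228), as did the kidney and head mesenchyme factor SIX2, with 1.01 ± 0.15 and 0.69 ± 0.15. Of 18 limb and trunk factors tested, 2 were higher and 2 lower at the maintenance glucose, and 2 were higher and 4 lower at 50 mM, where SHOX2 (-0.70 ± 0.19) and MSX1 (-1.07 ± 0.26) were added among the lower ones; these 4 of 18 and 6 of 18 were below the 39.1% and 41.4% of all genes that passed. Of all 32 limb and trunk factors, 10 were listed at 0. The list of heart position factors had 24 genes, of which 13 averaged at least 1 RPKM. NKX2-5, TBX5, HAND1, GATA5 and IRX4 were listed at 0 in all 8 libraries. Of 13 heart position factors tested, 2 were higher and 4 lower in each comparison, 6 of 13 beside the same shares of all genes. NR2F2, an atrial and venous factor, was higher by 0.41 ± 0.06 and 0.51 ± 0.06, and TBX18, a factor of the epicardium and the sinus node, by 0.34 ± 0.06 and 0.20 ± 0.06. TBX3, a factor of the conduction system and the limb, was lower, with log2 changes of -0.49 ± 0.15 and -0.58 ± 0.15, and so were the epicardial factors TCF21, with -0.59 ± 0.18 and -0.62 ± 0.18, and WT1, with -0.59 ± 0.15 and -0.63 ± 0.15. Neither rise to 50 mM gave a call in any of these lists.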

How the data were processed

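Total RNA from 8 AC16 libraries was sequenced, and the authors deposited 2 tables of RPKM per gene, 1 for the cultures started at 25 mM and 1 for those started at 5 mM glucose. Per the submitters' processing notes, STAR and the build hg38 were used; the counting tool, its strand setting and the gene models are not given in the sources used here. Library totals (21538898 to 27372851 reads) and whole reads were recovered from the RPKM steps, and 100% of genes above 0 came out whole within 0.01 read. The recovered HOX lengths are multiples of 3, so RPKM is per coding length.

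Changes were tested with limma 3.58.1 (R 4.3.3) on log2(RPKM + 1), with a trended prior, over all genes at 1 RPKM or more in at least 2 of the libraries fitted, two-sided, with Benjamini-Hochberg adjustment at 0.05; log2(RPKM + 1) understates the change of low genes. Rises to 50 mM used the 4 libraries of 1 table (2 residual degrees of freedom), and the comparisons between starting levels and the difference of the responses used all 8 (4 residual degrees of freedom). The fit was tested on simulated data. The members, the 12 other gene lists and the tests were chosen with earlier results of these data known. Every HOX gene was accounted for; values per library were printed for genes at a mean of 1 RPKM or more, fits for the called genes and for the 2 detected HOX genes with the largest change per direction, and of the other lists the called members and some of the most abundant ones. HOXC10 and the fits of HOXA3, HOXA5, HOXA7 and HOXD11 were chosen after their values were seen. Promoter windows came from RefSeq and gene places from GENCODE 29. The alternatives were a pseudocount of 0.1, no filter, median centring, no trended prior, a replicate block, a joint fit of all 8 libraries, leaving out each library and, chosen after seeing the data, voom on the recovered reads. Some genes are not reported or drawn here by their own values, and they remain in the counts, medians and sums.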

Additional observations from a re-analysis of the deposited data

How the results depend on the processing

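Same-numbered libraries deviated from their group means with correlations of -0.69 to 0.27. With 2 libraries a group, the deviations within a group mirror each other. Only the 25 mM and 5 mM groups share both replicate numbers (correlation 0.267). Whether the replicate numbers pair the samples therefore cannot be decided from these values. With the replicate number as a block in the fit of all 8 libraries, 4 HOX genes (HOXA10, HOXA11, HOXB7 and HOXC8) passed for 25 mM against 5 mM and the same number, 4, for 25 to 50 mM against 5 to 50 mM, against 6 and 6 without it, and 0 for both rises and for the difference of the responses; HOXA9 had adjusted p-values of 0.0711 and 0.0905, HOXC4 0.0541 and HOXB6 0.0665. No block could be fitted within the 4 libraries of a rise, whose groups share 1 replicate number. Leaving out each library in turn (the lone library left is assumed to vary like the other groups) gave 4 to 9 HOX genes for 25 mM against 5 mM, 1 to 9 for 25 to 50 mM against 5 to 50 mM (1, HOXA10, without 5 to 50 mM replicate 2), 0 to 4 and 0 to 2 for the rises from 25 and from 5 mM, and 0 to 0 for the difference of the responses; the cause was not tested. In these fits the estimates of HOXD8 (-0.023 to 0.163), HOXB3 (-0.211 to 0.299) and HOXC4 (-0.542 to 0.085) for the rise from 5 mM, and of HOXC4 (-0.586 to 0.042) for the difference of the responses, changed sign; none had passed. Voom gave the same counts of HOX genes, 6 and 6 between the starting levels and 0 elsewhere. With detection set at a mean of 0.5 or 2 RPKM, 31 or 19 HOX genes would count as detected. Without the filter 6 HOX genes passed at 25 mM against 5 mM, with HOXA9 lost (0.0598) and HOXC10 gained, and 8 at 25 to 50 mM against 5 to 50 mM, with HOXC10 and HOXD12 (2 reads in all) gained. The counts over all genes were less stable for the rises: 1 gene from 25 mM became 0 with no filter, without the trend and with the block, 4 with centring or a joint fit, 7 by voom and 0 to 777 with a library left out. From 5 mM, 39 became 0 with no filter, without the trend and with the block, 60 with centring, 130 with a joint fit and 0 to 805 with a library left out. For the difference of the responses, 3 became 0 with a pseudocount of 0.1, the block or voom, 1 with no filter or without the trend and 0 to 6 with a library left out. Over all genes, 3024 to 4769 and 3177 to 5733 passed between the starting levels with a library left out, against 4671 and 4946 with all. With 2 libraries a group, SEs of 0.07 to 0.25 on the log2 scale limit what could be seen. For the difference of the responses they were larger, 0.10 to 0.36.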
